A study of Arabidopsis thaliana with 12 samples.

Results

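The comparison described here sets the aerial part of Arabidopsis thaliana plants labelled psp1 against that of wild type (WT) plants. The 6 libraries were taken by organ and genotype label, 3 psp1-labelled and 3 WT, out of 12 in the series, which also holds the roots of both genotypes. All plants were of the Columbia ecotype. They were raised on upright agar plates with a dilution of Murashige and Skoog medium, following 4 days at 4 °C, under 16 h of light and 8 h of dark, and were collected as the night ended. The labels describe the 3 samples of a group as independent biological replicates. A SOLiD 5500XL sequencer read polyadenylated RNA from one end, 75 nucleotides at a time. The labels name the mutant by its gene alone and give neither the allele nor the way the line was kept. Loss of PSP1 is known to kill Arabidopsis embryos, and viable mutants in earlier work carried an added, inducible copy of the gene; whether the sampled plants did is not given in the sources used here. Of 27416 genes in the files, 15928 passed a filter on low counts and were tested.

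Plants make serine by several routes. In leaves in the light most of it comes from photorespiration, in which mitochondria turn glycine into serine. The phosphorylated pathway of plastids starts from 3-phosphoglycerate and runs through a dehydrogenase (PGDH), an aminotransferase (PSAT) and the phosphatase PSP1, and it is known to matter in roots, embryos and at night. Serine in turn carries sulfur into cysteine, through O-acetylserine, a compound that is known to switch on genes of the sulfur shortage response. The title of the series names sulfur assimilation as what a defect in this pathway affects.

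Counts per library were 5815906, 3757545 and 3627193 in the psp1-labelled aerial part and 8958217, 8317869 and 7302386 in the WT aerial part, so that depth separated the genotypes completely. The psp1-labelled libraries also varied more among themselves, the biological coefficient of variation being 27.3% in that group and 11.4% in WT. On the first principal component (39.1% of the variance) psp1-labelled library 3 stood alone, and on the second (31.9%) psp1-labelled library 2 did. The organ label matched its markers: 6 leaf mesophyll genes summed to between 20450 and 27200 CPM (counts scaled by the library total) in psp1-labelled and between 24880 and 30180 CPM in WT libraries, with no member at 0. Seed storage genes were at 0 in all 6 libraries for 9 of 9 members, and 6 flower genes summed to between 1.65 and 4.26 CPM in psp1-labelled and between 1.68 and 2.23 CPM in WT libraries. The 9 root genes summed to between 277.5 and 304 CPM in psp1-labelled and between 287.5 and 334 CPM in WT libraries, of which PYK10, a beta-glucosidase, had means of 289 CPM in the psp1-labelled and 312 CPM in the WT libraries; CASP1, EXPA18, COBL9 and LRX1 were at 0 in every psp1-labelled library and EXPA7 in every WT library. Phloem genes stood lower in every psp1-labelled library, with a sum of between 700.3 and 729 CPM against between 813 and 868 CPM in WT. No member of any marker list was called. In whole organs, fewer cells of a type and less RNA per cell cannot be told apart.

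By the edgeR exact test at an adjusted p under 0.01, 225 genes rose and 135 fell in the psp1-labelled aerial part. These 360 calls are 2.26% of the genes tested, 1.41% for rises and 0.848% for falls, the shares against which the counts below are read. The lists below were chosen with earlier results of these data known. Their counts and medians describe those lists and test nothing. Of the 225 risen genes 39 exceeded 4-fold, and of the 135 fallen ones 17 did. The median log2 fold change was 1.09 among the risen, -0.97 among the fallen and 0.01 over all genes tested. Of the 360, 356 had groups that did not overlap in CPM, as did 23.1% of all genes tested. The more cautious quasi-likelihood test called 31 genes (0.195%), 28 of them risen, all of them among the 360. Without psp1-labelled library 1 the count was 657, and without WT library 1, 2 or 3 it was 113, 124 and 117.

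**Figure D1:**
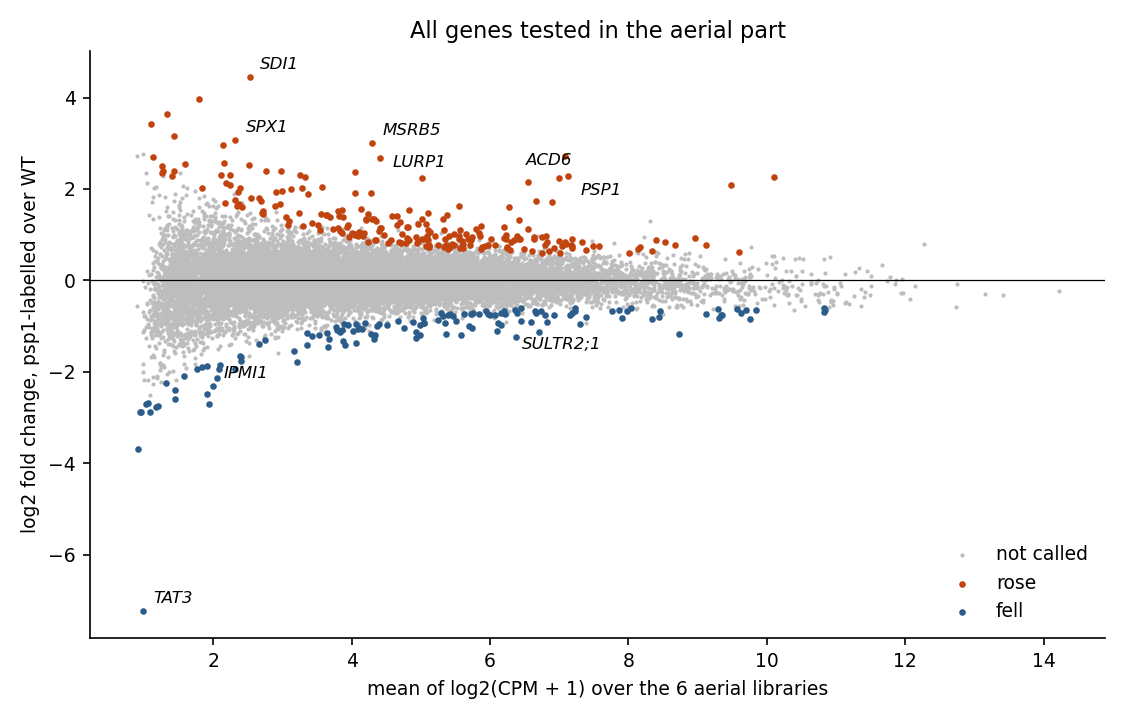
Each point is 1 of the 15928 genes tested, placed by its mean log2(CPM + 1) over the 6 aerial libraries and its log2 fold change of psp1-labelled over WT. The 225 genes that rose are in red and the 135 that fell in blue; TAT3, at 0 counts in the psp1-labelled libraries, lies at the bottom, and SDI1 has the largest rise.

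The gene named by the mutant label was higher, not lower, in the aerial libraries that carry that label. PSP1 had 401, 304 and 243 CPM in psp1-labelled libraries 1 to 3, against 73.8, 64.3 and 50.4 CPM in WT libraries 1 to 3. The groups did not overlap and lay 4.88-fold apart (log2 2.29 ± 0.26, adjusted p = 9.01e-24), and the call held under all 16 alternative fits. The genotype is therefore written as labelled throughout, and each direction below is that of the labels. PSP1 (AT1G18640, on the minus strand of chromosome 1 from 6416169 to 6418693 in TAIR10.1) is counted here over its coding sequence, which shows neither whether the transcript is intact nor from which copy it came. Of the 5 genes on either side, all 10 tested, PDCB3, a callose-binding protein of plasmodesmata and the next gene upstream, was called as well. PDCB3 had 13.6, 16.5 and 15.7 CPM in psp1-labelled libraries 1 to 3, against 5.92, 7.45 and 5.204 CPM in WT libraries 1 to 3 (log2 1.25 ± 0.18, adjusted p = 0.00137). Its call was lost without WT library 1 (0.0599), WT library 2 (0.0135) or WT library 3 (0.0707). The other 9 neighbours had log2 differences between -0.47 and 0.30, none called.

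The other enzymes of the phosphorylated pathway did not pass the test, so PSP1 was the 1 call among 6 members, whose median was 0.15 against 0.01 over all genes. The dehydrogenase PGDH2 came nearest. PGDH2 had 22.2, 19.7 and 26.2 CPM in psp1-labelled libraries 1 to 3, against 12.8, 14.6 and 9.997 CPM in WT libraries 1 to 3 (log2 0.82 ± 0.20, adjusted p = 0.029). Its groups did not overlap, but its coding sequence overlaps that of AT1G17744, so its reads cannot be assigned with certainty. PGDH1 ran from 69.6 to 140.1 CPM over the psp1-labelled libraries, a wider span than the 107 to 113 CPM in WT, and its groups overlapped (log2 -0.12 ± 0.30). Downstream users of serine had 0 calls among 18 tested (serine hydroxymethyltransferases, serine acetyltransferases, sphingolipid and phosphatidylserine synthesis), with a median of 0.08. Of them 3 reached an unadjusted p under 0.05, and the quasi-likelihood test and DESeq2 called 0. Without psp1-labelled library 1 or 3 the exact test called 1, a rise. Photorespiration had 0 calls among 18 as well, with a median of -0.17 and 13 members below 0. Here 7 reached an unadjusted p under 0.05, the quasi-likelihood test called 0 and DESeq2 called 1. Without psp1-labelled library 1 the exact test called 1, a rise.

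Genes of the sulfur shortage response rose: 8 of 13 tested members rose and 1 fell, and their median log2 fold change was 2.08 against 0.01 over all genes. The largest fold change among all risen genes was that of SDI1 (AT5G48850, on the minus strand of chromosome 5 from 19805437 to 19807853 in TAIR10.1), a repressor of glucosinolate synthesis. SDI1 had 15.5, 19.7 and 18 CPM in psp1-labelled libraries 1 to 3, against 0.6698, 0.721 and 0.959 CPM in WT libraries 1 to 3. Every psp1-labelled library lay far above every WT one (log2 4.44 ± 0.16, 21.7-fold, adjusted p = 6.9e-26). Its close relative SDI2 (AT1G04770) behaved alike. SDI2 had 38.7, 31.9 and 35.6 CPM in psp1-labelled libraries 1 to 3, against 7.37, 6.61 and 5.75 CPM in WT libraries 1 to 3 (log2 2.38 ± 0.12, adjusted p = 5.57e-20). LSU2 had 7.57, 8.25 and 6.62 CPM in psp1-labelled libraries 1 to 3, against 0.558, 0.1202 and 0.685 CPM in WT libraries 1 to 3 (log2 3.96 ± 0.38, adjusted p = 4.14e-11). LSU2 is named for its induction by low sulfur; its paralogs LSU1, LSU3 and LSU4 fell below the filter, at mean levels of 1.41, 0.859 and 0.832 CPM in psp1-labelled and 0.0773, 0 and 0.1601 CPM in WT libraries. The 250 bases before the annotated start of SDI1 (chr5:19807854-19808103, minus strand, TAIR10.1) hold 1 copy of GAGAC, the core of the sulfur-responsive element, here on the opposite strand and in capitals; it is shown because SDI1 leads the list.
SDI1: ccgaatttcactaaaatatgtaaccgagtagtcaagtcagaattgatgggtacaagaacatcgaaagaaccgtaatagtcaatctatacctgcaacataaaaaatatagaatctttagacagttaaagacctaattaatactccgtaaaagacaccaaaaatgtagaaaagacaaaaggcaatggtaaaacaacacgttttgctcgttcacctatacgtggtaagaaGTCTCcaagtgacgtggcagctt

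The enzymes that reduce activated sulfate rose with them, by unequal amounts. APR3 had 182, 196 and 218 CPM in psp1-labelled libraries 1 to 3, against 40.7, 43.04 and 46.3 CPM in WT libraries 1 to 3 (log2 2.16 ± 0.10, adjusted p = 2.32e-33). APR1 had 56.2, 81.4 and 71.4 CPM in psp1-labelled libraries 1 to 3, against 13.7, 17.55 and 11.4 CPM in WT libraries 1 to 3 (log2 2.25 ± 0.25, adjusted p = 3.33e-19). APR2 had 468, 529 and 498 CPM in psp1-labelled libraries 1 to 3, against 271, 285 and 261 CPM in WT libraries 1 to 3 (log2 0.83 ± 0.08, adjusted p = 1.4e-05). These are the 3 APS reductases, which commit activated sulfate to reduction, and APR2, per coding length the most abundant of them with means of 346 TPM (transcripts scaled by length and library) in psp1-labelled and 191 TPM in WT libraries, had the smallest change. MSRB5, a reductase that repairs oxidised methionine, stood highest in library 1 of the psp1-labelled group and varied in WT. MSRB5 had 62.6, 48.2 and 49.4 CPM in psp1-labelled libraries 1 to 3, against 7.702, 3.61 and 8.22 CPM in WT libraries 1 to 3 (log2 3.00 ± 0.37, adjusted p = 3.96e-25). Of 5 tested members of the B type of methionine sulfoxide reductases it alone was called. SULTR4;2, named after its values were seen, which exports sulfate from the vacuole, rose, with 7.73 CPM in the psp1-labelled and 1.73 CPM in the WT libraries on average (log2 2.08 ± 0.45, adjusted p = 0.000812), a call lost without WT library 2 (0.0436) or WT library 3 (0.0464).

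SULTR2;1, a sulfate transporter of vascular tissue, went the other way. SULTR2;1 had 71.2, 65.5 and 74.2 CPM in psp1-labelled libraries 1 to 3, against 133, 124 and 130.2 CPM in WT libraries 1 to 3 (log2 -0.92 ± 0.05, adjusted p = 2.67e-06). The summed phloem markers were lower in the psp1-labelled libraries as well, and their part in this fall was not tested. The rest of sulfate assimilation, from ATP sulfurylase and sulfite reductase to the synthesis of cysteine and glutathione, had no rise and 1 fall among 16 tested, with a median of 0.03. That fall was APK2, an APS kinase that feeds sulfate to glucosinolates and other sulfated compounds. APK2 had 21.7, 12.8 and 25.6 CPM in psp1-labelled libraries 1 to 3, against 34.3, 41.2 and 64.6 CPM in WT libraries 1 to 3 (log2 -1.26 ± 0.39, adjusted p = 0.000757). Its call was lost without WT library 3 (0.0514) or psp1-labelled library 2 (0.0112). Of the 9 called sulfur shortage genes, 8 were called by all 16 alternative fits, SULTR4;2 being the exception.

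**Figure D2:**
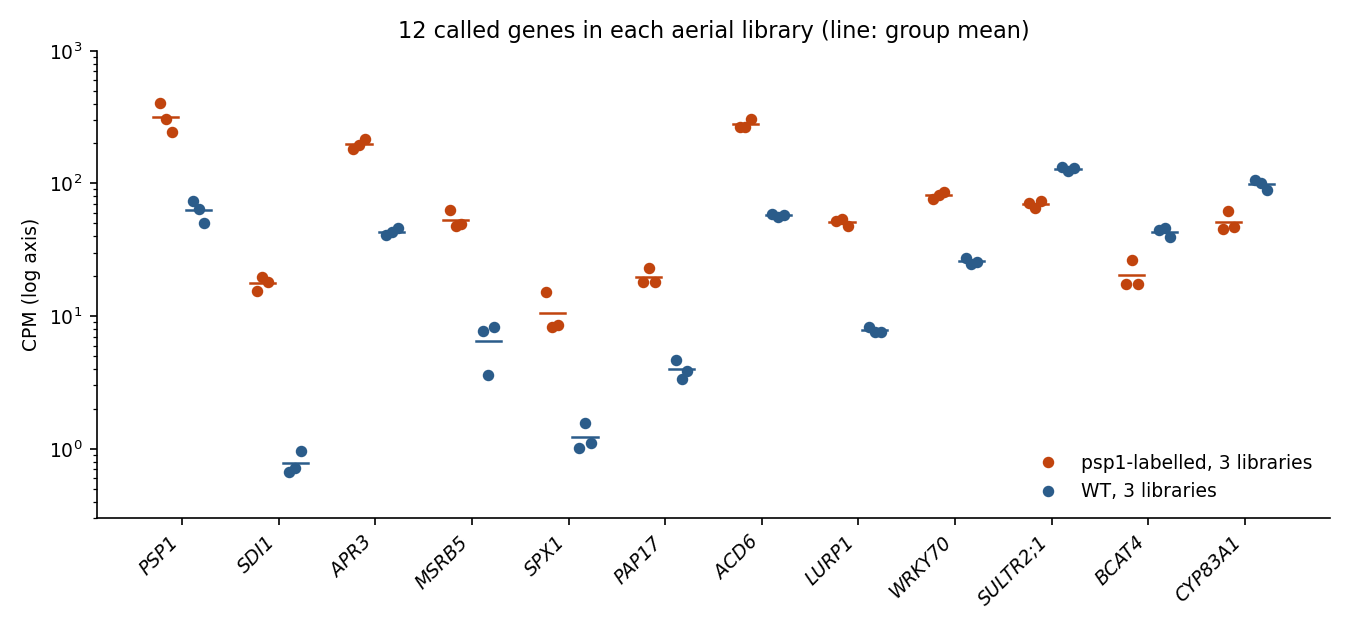
CPM on a log axis for 12 called genes, with each psp1-labelled library in red at the left and each WT library in blue at the right of a pair; lines are group means of 3. The groups do not overlap for any of the 12: the first 9 genes are higher in psp1-labelled libraries, and SULTR2;1, BCAT4 and CYP83A1 are lower.

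Genes of aliphatic glucosinolate synthesis fell. These sulfur-rich defence compounds are made from methionine, whose side chain is lengthened before the core is built. The summed phloem markers were lower in the psp1-labelled libraries too, and their part was not tested. Of 25 members tested, 7 fell and 0 rose, 23 lay below 0, and the median was -0.61 against 0.01 over all genes. Chain elongation gave most of the falls. BCAT4 had 17.37, 26.4 and 17.37 CPM in psp1-labelled libraries 1 to 3, against 44.5, 46.05 and 39.6 CPM in WT libraries 1 to 3 (log2 -1.14 ± 0.23, adjusted p = 7.73e-05). BCAT4 is the aminotransferase that opens the elongation cycle. The synthases MAM3 and MAM1 differed by -1.41 ± 0.47 and -0.71 ± 0.17 (adjusted p = 0.0011 and 0.00426), the isomerase subunit IPMI1 by -2.32 ± 0.95 (0.000639) and the dehydrogenase IMD1 by -1.04 ± 0.21 (0.0007). MAM1 and IMD1 are named after their values were seen. In core synthesis, CYP83A1 had 45.6, 62.3 and 46.9 CPM in psp1-labelled libraries 1 to 3, against 106, 102 and 88.5 CPM in WT libraries 1 to 3 (log2 -0.98 ± 0.18, adjusted p = 3.05e-05). CYP79F1 had 40.9, 39.9 and 16.5 CPM in psp1-labelled libraries 1 to 3, against 69.5, 70.9 and 76.8 CPM in WT libraries 1 to 3 (log2 -1.19 ± 0.42, adjusted p = 0.000587). CYP79F1, the first enzyme of core synthesis, was at its lowest in psp1-labelled library 3. The regulators MYB28 and MYB29 differed by -0.32 and -0.38 and were not called.

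By the quasi-likelihood test 0 of these 7 were called, against 8 of the 9 called sulfur shortage genes, while DESeq2 called 7; 15 members reached an unadjusted p under 0.05. The calls of CYP83A1 and BCAT4 were lost in the quasi-likelihood test alone (adjusted p = 0.0186 and 0.0228). Without WT library 1, 2 or 3 the number of calls in the list was 3, 2 and 3. The call of CYP79F1 was lost without WT library 1 (0.0115), WT library 2 (0.0118) or WT library 3 (0.0168). IPMI1 lost its call without WT library 1 (0.0424), WT library 2 (0.0354) or WT library 3 (0.03), and its log2 fold change was -3.34 without psp1-labelled library 1, where its CPM of 2.58 stood over 1.33 and 0 in libraries 2 and 3. MAM3 lost its call without WT library 2 (0.0206) or WT library 3 (0.0499), MAM1 without WT library 1 (0.0879), WT library 2 (0.0612), WT library 3 (0.0243), psp1-labelled library 1 (0.0111) or psp1-labelled library 3 (0.0204), and IMD1 without WT library 1 (0.0151) or WT library 2 (0.0506).

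Around methionine itself, 1 of 27 tested genes of the aspartate family rose and 3 fell, with a median of -0.19. The quasi-likelihood test called 0 of the 27, and DESeq2 called 4. The aspartate kinase AK3 fell, at the entry of the family. AK3 had 27.5, 41.5 and 42.5 CPM in psp1-labelled libraries 1 to 3, against 64.97, 69.6 and 79.7 CPM in WT libraries 1 to 3 (log2 -0.99 ± 0.23, adjusted p = 0.000221). Its call was lost without WT library 3 (0.0164). The methionine synthases MS2 and MS1 fell by 0.74 ± 0.16 and 0.64 ± 0.17 on the log2 scale (adjusted p = 0.00214 and 0.00946). The call of MS2 was lost without WT library 1 (0.0614), WT library 2 (0.0236), WT library 3 (0.0337) or psp1-labelled library 3 (0.0124), and that of MS1 without WT library 1 (0.0739), WT library 2 (0.0592), WT library 3 (0.128), psp1-labelled library 1 (0.0236) or psp1-labelled library 3 (0.0332). THA1, a threonine aldolase that splits threonine into glycine and acetaldehyde, rose. THA1 had 147, 116 and 151 CPM in psp1-labelled libraries 1 to 3, against 72.7, 45.3 and 41.9 CPM in WT libraries 1 to 3 (log2 1.33 ± 0.28, adjusted p = 4.96e-07). MRD1, named for its fall in a mutant that accumulates methionine, was lower in the psp1-labelled libraries too, with 7.099 CPM in the psp1-labelled and 18.96 CPM in the WT libraries (log2 -1.46 ± 0.22, adjusted p = 3.68e-05). It was not among the 3 falls that the quasi-likelihood test called.

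Genes of the phosphate shortage response rose in part: 4 of 19 tested members rose and 1 fell, 14 lay above 0 and the median was 0.39. SPX1 had 15.1, 8.25 and 8.55 CPM in psp1-labelled libraries 1 to 3, against 1.005, 1.56 and 1.096 CPM in WT libraries 1 to 3 (log2 3.07 ± 0.30, adjusted p = 3.35e-09). SPX1 is a nuclear sensor that holds back the phosphate response. PAP17 had 18.1, 23.1 and 17.9 CPM in psp1-labelled libraries 1 to 3, against 4.69, 3.37 and 3.83 CPM in WT libraries 1 to 3 (log2 2.26 ± 0.19, adjusted p = 5.49e-11). PAP17 is an acid phosphatase. Both were called by all 16 alternative fits, and without WT library 1 or 3 they were the 2 calls of the list. The other risen members act on membrane lipids: SRG3, a glycerophosphodiester phosphodiesterase, and MGD2, which makes galactolipids that stand in for phospholipids. SRG3 had 22.4, 39.4 and 24.5 CPM in psp1-labelled libraries 1 to 3, against 11.2, 12.7 and 9.18 CPM in WT libraries 1 to 3 (log2 1.34 ± 0.30, adjusted p = 0.000253). MGD2 had 18.9, 15.2 and 13.8 CPM in psp1-labelled libraries 1 to 3, against 6.03, 6.97 and 7.26 CPM in WT libraries 1 to 3 (log2 1.21 ± 0.14, adjusted p = 0.00136). Their calls were lost, that of SRG3 without WT library 1 (0.0139) or WT library 3 (0.0221) and that of MGD2 without WT library 1 (0.0759), WT library 2 (0.0404) or WT library 3 (0.0297). The member that fell, PHO2, is a ubiquitin-conjugating enzyme that limits phosphate uptake. PHO2 had 71.4, 72.7 and 68.4 CPM in psp1-labelled libraries 1 to 3, against 109, 94.9 and 110.5 CPM in WT libraries 1 to 3 (log2 -0.60 ± 0.08, adjusted p = 0.00898), a call lost without WT library 1 (0.144), WT library 2 (0.0367), WT library 3 (0.112), psp1-labelled library 1 (0.0106), psp1-labelled library 2 (0.0209) or psp1-labelled library 3 (0.0183).

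The level of phosphate transporters of the PHT1 family was too low to test for most: PHT1;1, PHT1;2, PHT1;5, PHT1;8 and PHT1;9 fell below the filter, and PHT1;4 differed by 0.54 (adjusted p = 0.582). Outside the list, AT5G03545, annotated as expressed on phosphate starvation, rose under the rule for named genes. AT5G03545 had 14.6, 14.4 and 10.5 CPM in psp1-labelled libraries 1 to 3, against 3.46, 1.56 and 2.19 CPM in WT libraries 1 to 3 (log2 2.40 ± 0.33, adjusted p = 9.14e-08). It was called by every alternative except the quasi-likelihood test (adjusted p = 0.0106). The 250 bases before the starts of SRG3 (chr3:350011-350260, minus strand) and MGD2 (chr5:6896213-6896462, plus strand, TAIR10.1) are shown because both hold GNATATNC, the element bound by the phosphate regulator PHR1, with 2 copies in SRG3 and 1 in MGD2, in capitals. Of the promoters of the 5 called members, 2 held it, against 5.29% of 15825 promoters of tested genes.
SRG3: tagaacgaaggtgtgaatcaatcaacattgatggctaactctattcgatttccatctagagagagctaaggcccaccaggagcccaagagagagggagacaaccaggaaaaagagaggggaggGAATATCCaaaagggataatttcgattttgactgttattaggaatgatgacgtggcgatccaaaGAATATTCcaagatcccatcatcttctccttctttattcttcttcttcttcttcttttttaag
MGD2: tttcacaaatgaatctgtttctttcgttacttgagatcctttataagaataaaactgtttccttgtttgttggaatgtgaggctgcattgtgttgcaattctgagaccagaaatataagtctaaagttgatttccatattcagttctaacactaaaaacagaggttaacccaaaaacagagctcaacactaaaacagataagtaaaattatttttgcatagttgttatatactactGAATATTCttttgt

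Genes that respond to salicylic acid, the hormone of defence against biotrophic pathogens, formed another group of rises. Of 17 tested members 9 rose and 0 fell, 16 lay above 0, and the median was 1.02 against 0.01 over all genes. ACD6 had 268, 266 and 308 CPM in psp1-labelled libraries 1 to 3, against 58.9, 56.02 and 57.9 CPM in WT libraries 1 to 3 (log2 2.24 ± 0.08, adjusted p = 2.35e-39). ACD6 is an ankyrin repeat membrane protein of salicylic acid defence, and its adjusted p was the smallest of the comparison. LURP1 had 52.4, 53.5 and 47.4 CPM in psp1-labelled libraries 1 to 3, against 8.26, 7.57 and 7.53 CPM in WT libraries 1 to 3 (log2 2.67 ± 0.08, adjusted p = 1.49e-31). LURP1 is needed for full resistance to downy mildew. WRKY70 had 75.8, 82.2 and 86.8 CPM in psp1-labelled libraries 1 to 3, against 27.2, 24.5 and 25.8 CPM in WT libraries 1 to 3 (log2 1.62 ± 0.09, adjusted p = 4.76e-17). WAK1 had 132, 132 and 144 CPM in psp1-labelled libraries 1 to 3, against 45.9, 37.03 and 46.97 CPM in WT libraries 1 to 3 (log2 1.61 ± 0.12, adjusted p = 7.28e-18). WRKY70 is a transcription factor of this response, and WAK1 a receptor kinase anchored in the cell wall. All of these 4 were called by all 16 alternative fits, and the quasi-likelihood test called no other member. By the exact test the count of the list was 6 without WT library 1 or 3.

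The other called members were the transcription factor WRKY54 (log2 2.58 ± 0.33, adjusted p = 7.69e-06), the receptor kinase CRK5 (2.54 ± 0.34, 0.000434), the ankyrin repeat protein BDA1 (1.53 ± 0.15, 1.24e-06), PCC1 (1.48 ± 0.18, 0.000145) and WAK2 (0.97 ± 0.24, 0.00136); BDA1, PCC1 and WAK2 are named after their values were seen. CRK5 lost its call without WT library 1 (0.0302) or WT library 3 (0.0393), PCC1 without WT library 1 (0.0144) or WT library 3 (0.021) and WAK2 without WT library 1 (0.0505), WT library 2 (0.0222) or WT library 3 (0.0372). PCC1 shares 166 coding bases at 100.0% identity with AT3G22235, so reads could be divided between them. The pathogenesis-related genes often used as markers of this response were not called: PR1 was below the filter, with means of 0.344 CPM in the psp1-labelled and 0.786 CPM in the WT libraries, while PR2 and PR5 differed by 0.46 and -0.06 (adjusted p = 0.653 and 1). Nor was a gene called among 16 that make or control salicylic and N-hydroxypipecolic acid, where 15 lay above 0 with a median of 0.53. Of these 16, 4 reached an unadjusted p under 0.05, and the quasi-likelihood test and DESeq2 called 0. Without psp1-labelled library 1 or 3 the exact test called 1, a rise. ICS1, the main enzyme of salicylic acid synthesis, had means of 16.99 CPM in the psp1-labelled and 15.1 CPM in the WT libraries (log2 0.12 ± 0.35, adjusted p = 0.914).

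Related families rose in a few members. Among WRKY factors 4 of 34 rose and 0 fell: WRKY70, WRKY54, WRKY33 and WRKY65. WRKY33 had 72.4, 53.5 and 63.96 CPM in psp1-labelled libraries 1 to 3, against 27.4, 32.9 and 30.7 CPM in WT libraries 1 to 3 (log2 1.02 ± 0.13, adjusted p = 1.22e-05). WRKY33 controls camalexin, the main phytoalexin of this species. WRKY65 had 2.41, 3.19 and 5.79 CPM in psp1-labelled and 1.005, 0.962 and 0 CPM in WT libraries 1 to 3, and 3 of 15 alternatives called it (adjusted p = 0.00909, highest 0.231). Of the camalexin and indole defence list 12 of 13 lay above 0, with a median of 0.57, and 8 reached an unadjusted p under 0.05. The quasi-likelihood test called 0 of them and DESeq2 called 4. The exact test called 0 without WT library 1 or 2, and 3 without psp1-labelled library 1 or 3. With all libraries 2 of 13 rose, the glutathione S-transferases GSTF7 (log2 1.38 ± 0.20, adjusted p = 9.14e-05) and GSTF6 (1.04 ± 0.26, 0.00509). GSTF7 lost its call without WT library 1 (0.021) or WT library 2 (0.0118), and GSTF6 without WT library 1 (0.0469), WT library 2 (0.106), WT library 3 (0.102), psp1-labelled library 1 (0.0121) or psp1-labelled library 2 (0.0408). GSTF2 rose as well, making 3 of 7 in the phi class, a call lost without WT library 1 (0.0144). Without WT library 1 the phi class had 0 calls, as it had by the quasi-likelihood test. Of 27 cysteine-rich receptor-like kinases 2 rose, CRK5 and CRK4, with 24 above 0. The quasi-likelihood test called 0 of them, as did the exact test without WT library 1 or 3. CRK4 lost its call without WT library 1 (0.16), WT library 2 (0.0869), WT library 3 (0.0381), psp1-labelled library 1 (0.024) or psp1-labelled library 2 (0.0239). Among 108 genes of the NLR class of intracellular immune receptors 2 rose, near the 1.41% of all genes, with a median of 0.22. AT5G66910 was 1 of the 2. Its call was lost without WT library 1 (0.136), WT library 2 (0.123), WT library 3 (0.132), psp1-labelled library 2 (0.0155) or psp1-labelled library 3 (0.0147). The NLR count was 1 without any 1 WT library, and 0 by the quasi-likelihood test. AT1G72910 and TIR (AT1G72930), receptor-domain genes at 98.1% identity over 528 coding bases, rose by 1.46 ± 0.15 and 1.40 ± 0.30 (adjusted p = 3.45e-07 and 1.4e-05), and could share reads. TIR was named after its values were seen.

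FRK1 and MPK3 belong to none of the lists and were picked after their values were seen, so they describe themselves alone. FRK1, a kinase gene that responds to bacterial flagellin, had 5.33, 5.59 and 1.93 CPM in psp1-labelled and 0.6698, 0.2404 and 0 CPM in WT libraries 1 to 3 (log2 3.64 ± 0.66, adjusted p = 5.01e-05), a call lost without WT library 3 (0.0112). MPK3 had 124, 107 and 100.4 CPM in psp1-labelled libraries 1 to 3, against 58.5, 56.6 and 59.2 CPM in WT libraries 1 to 3 (log2 0.89 ± 0.08, adjusted p = 1.22e-05). MPK3 is a kinase of the defence cascade. SZF1, a zinc finger gene induced by salt and by chitin, was among the 31 genes called by every fit. SZF1 had 223, 198 and 232 CPM in psp1-labelled libraries 1 to 3, against 122, 118 and 112 CPM in WT libraries 1 to 3 (log2 0.85 ± 0.07, adjusted p = 1.4e-05). The W box, TTGACC or TTGACT, is the site of WRKY factors. It occurred in the 250 bases before the start of 87 of 225 risen genes (38.7%), of 33 of 134 fallen genes (24.6%) and of 27.7% of 15825 tested genes, counting both strands; no test was made. Among the 9 called salicylic acid response genes, 3 held it (33.3%). The promoters of SZF1 (chr3:20775970-20776219, plus strand), WRKY33 (chr2:16107985-16108234, plus strand) and BDA1 (chr5:22186634-22186883, minus strand, TAIR10.1) are shown for their 3, 2 and 2 copies, in capitals.
SZF1: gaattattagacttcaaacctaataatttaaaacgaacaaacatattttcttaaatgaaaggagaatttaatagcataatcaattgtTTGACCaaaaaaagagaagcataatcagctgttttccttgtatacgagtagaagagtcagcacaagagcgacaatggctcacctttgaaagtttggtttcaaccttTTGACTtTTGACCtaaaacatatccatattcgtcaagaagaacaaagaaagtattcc
WRKY33: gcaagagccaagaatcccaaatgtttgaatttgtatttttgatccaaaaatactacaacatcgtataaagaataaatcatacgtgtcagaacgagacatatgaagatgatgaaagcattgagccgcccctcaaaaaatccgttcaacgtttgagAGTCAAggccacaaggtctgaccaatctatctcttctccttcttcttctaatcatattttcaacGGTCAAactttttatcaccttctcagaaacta
BDA1: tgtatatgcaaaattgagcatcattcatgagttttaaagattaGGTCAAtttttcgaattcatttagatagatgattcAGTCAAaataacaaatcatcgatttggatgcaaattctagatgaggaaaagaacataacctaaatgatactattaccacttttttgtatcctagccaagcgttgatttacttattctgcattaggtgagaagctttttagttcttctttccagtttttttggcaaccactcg

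The other elements were counted the same way. GAGAC occurred before 27.6% of risen, 17.9% of fallen and 25.1% of tested genes, and 1 of the 9 called sulfur shortage genes, SDI1, held it. GNATATNC occurred before 8.44% of risen, 13.4% of fallen and 5.29% of tested genes. The G box, CACGTG, occurred before 7.11% of risen, 7.46% of fallen and 7.46% of tested genes. A match is a run of letters in this window and does not show binding.

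**Figure D3:**
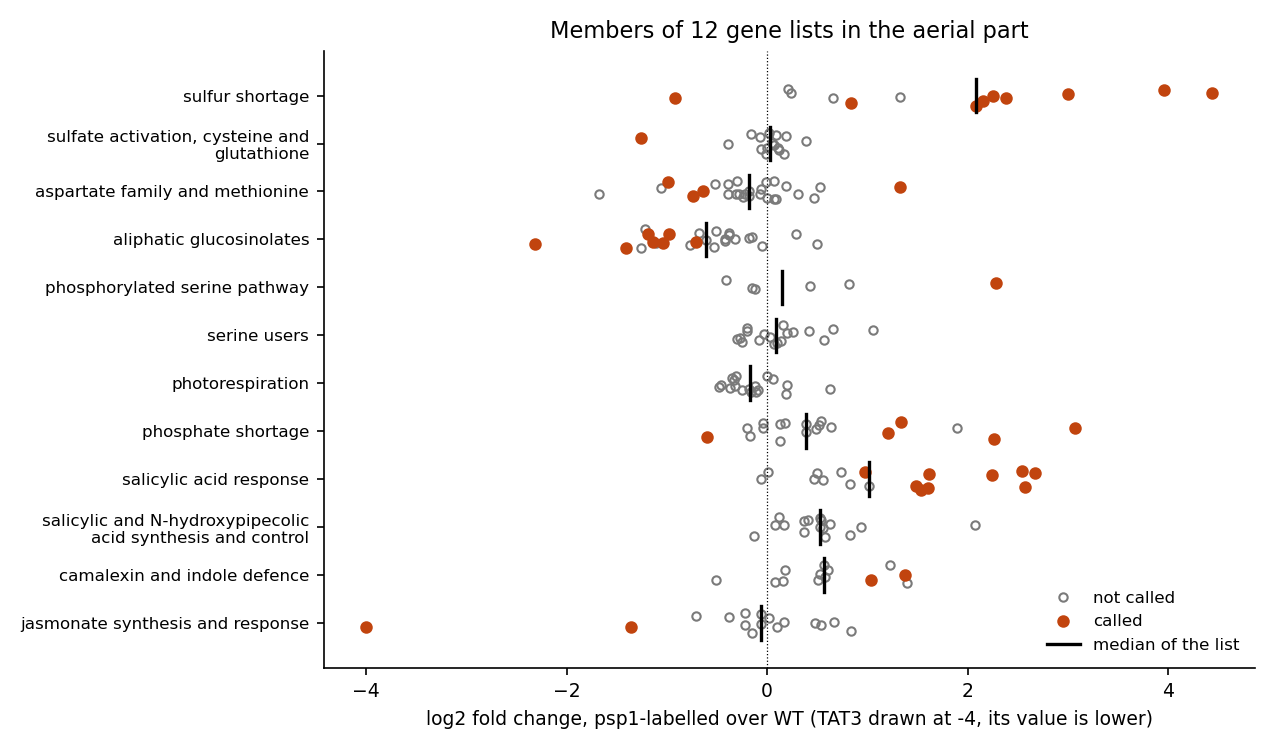
Log2 fold changes of psp1-labelled over WT for the tested members of 12 gene lists, 1 point a gene, filled where called; the black bar is the median of the list. Called sulfur shortage, phosphate and salicylic acid response genes lie mostly at the right, and the 7 called aliphatic glucosinolate genes lie at the left; TAT3 is drawn at -4, above its value.

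The genes that every alternative fit called also included 5 described here that are in none of the lists or families, and UGT72E1 and CYP71B23 of 2 families counted further on. AT5G59670 is a leucine-rich repeat receptor kinase gene. AT5G59670 had 16.9, 22.9 and 17.1 CPM in psp1-labelled libraries 1 to 3, against 4.46, 3.01 and 3.56 CPM in WT libraries 1 to 3 (log2 2.31 ± 0.22, adjusted p = 1.35e-10). AT5G03350, a legume lectin family gene, had 30.5 CPM in the psp1-labelled and 7.81 CPM in the WT libraries (log2 1.92 ± 0.16, adjusted p = 1.03e-11), and XBAT34, of a ubiquitin ligase family, had 36.7 CPM in the psp1-labelled and 9.45 CPM in the WT libraries (1.91 ± 0.30, 6.18e-09). The S-locus lectin kinase gene AT4G27300 and the tetratricopeptide repeat gene AT1G80130 rose by 1.14 ± 0.18 and 2.40 ± 0.27 (adjusted p = 3.28e-07 and 2.03e-09). UGT72E1, a glycosyltransferase of phenylpropanoids, rose by 1.13 ± 0.14 (2.69e-07). CYP71B23 had 47.6, 47.6 and 46.3 CPM in psp1-labelled libraries 1 to 3, against 17.8, 15.3 and 14.5 CPM in WT libraries 1 to 3 (log2 1.53 ± 0.10, adjusted p = 1.69e-11). CYP71B23 is a cytochrome P450 whose neighbour CYP71B3 rose too, by 0.77 ± 0.09 (0.000451), a call lost without WT library 1 (0.0313) or WT library 2 (0.0347). AZI1, a lipid transfer protein that primes defence after azelaic acid, was called by all but the quasi-likelihood test. AZI1 had 34.04, 14.4 and 19.9 CPM in psp1-labelled libraries 1 to 3, against 5.13, 5.17 and 5.75 CPM in WT libraries 1 to 3 (log2 2.05 ± 0.34, adjusted p = 3.42e-07).

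Called genes lay next to each other on a chromosome in 15 pairs, and in 6 of these the members moved in opposite directions. No such count was made for genes in general, so the 15 do not show clustering. The 6 include AT1G33120 and PGY2, near copies whose division of reads cannot be checked. MSL4, a mechanosensitive channel, and MRD1 are a further opposite pair, at log2 fold changes of 2.71 and -1.46. PCR1, which confers cadmium resistance, and AT1G14890 are another, at 3.42 and -1.78. GSTF7 and GSTF6, WAK1 and WAK2, and CYP71B23 and CYP71B3 are pairs that rose together. No called gene has a coding sequence that overlaps another. MSL4 and PCR1 were picked after their values were seen.

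The jasmonate, heat shock, nitrogen and starch lists had 2 calls or fewer each. In the jasmonate list 16 of 26 members were tested, and 2 fell and 0 rose, with a median of -0.06. Falls made up 0.848% of all genes tested. The quasi-likelihood test called 0 of the 16 and DESeq2 called 1. TAT3, a tyrosine aminotransferase induced by jasmonate, had 0 counts in all 3 psp1-labelled libraries, against 31, 25 and 17 in WT libraries 1 to 3, which makes it at least 13.1-fold lower with 3 counts over the group as the floor (adjusted p = 5.85e-07, and 0.0212 in the quasi-likelihood test). JOX2, an enzyme that inactivates jasmonate, fell. JOX2 had 10.5, 14.9 and 5.24 CPM in psp1-labelled libraries 1 to 3, against 27.2, 22.4 and 27.4 CPM in WT libraries 1 to 3 (log2 -1.36 ± 0.44, adjusted p = 0.000868), a call lost without WT library 1 (0.0369) or WT library 3 (0.0266). Of 9 heat shock genes HSP70 (AT3G12580) rose, with 13.9 CPM in the psp1-labelled and 3.49 CPM in the WT libraries (log2 1.95 ± 0.36, adjusted p = 4.98e-05), a call lost without WT library 1 (0.0119). Of 20 nitrogen genes the cytosolic glutamine synthetase GLN1;1 rose (log2 0.96 ± 0.32, adjusted p = 0.00836), and 6 of 16 alternatives called it. It lost its call without WT library 1 (0.067), WT library 2 (0.0708), WT library 3 (0.154), psp1-labelled library 1 (0.026) or psp1-labelled library 2 (0.068). Of 23 genes of starch, sugar and dark response BAM9 of the beta-amylase family fell. BAM9 had 687, 654 and 672 CPM in psp1-labelled libraries 1 to 3, against 1033, 1016 and 1017 CPM in WT libraries 1 to 3 (log2 -0.65 ± 0.02, adjusted p = 0.000757), a call lost without WT library 1 (0.0302), WT library 2 (0.0242) or WT library 3 (0.0147).

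No gene was called by the exact test in 6 further lists. Oxidative stress, respiration and iron storage had 0 of 17, with 6 at an unadjusted p under 0.05. Protein folding in the endoplasmic reticulum had 0 of 13, with 12 above 0, a median of 0.26 and 5 at an unadjusted p under 0.05. Abscisic acid and cold response had 0 of 7 (2 unadjusted), DNA damage 0 of 8 (0), flowering time 0 of 4 (1) and senescence 0 of 4 (2). The quasi-likelihood test and DESeq2 called 0 in each of these 6. Among families, 0 members were called of 24 UMAMIT amino acid transporters, 30 receptor-like proteins, 17 glutaredoxins, 23 SAUR, 22 Aux/IAA, 18 xyloglucan endotransglucosylase and 13 alpha expansin genes, with 2, 0, 2, 2, 1, 3 and 1 at an unadjusted p under 0.05 and 0 called by either other test. Calls were made for 2 of 37 NAC factors (NAC036 and NAC2, both up), 1 of 14 ERF factors (ERF104, up) and 1 of 15 tau glutathione S-transferases (GSTU27, up). They were also made for 2 of 43 UDP-glycosyltransferases (UGT72E1 up, UGT76C2 down) and 7 of 115 cytochromes P450, 5 up and 2 down. The share over all genes tested was 2.26%. The NAC and ERF counts were 0 by the quasi-likelihood test and without any 1 WT library. The P450 count was 2 without WT library 1 or 2 and 3 without WT library 3. An unadjusted p under 0.05 was reached by 17 NAC, 5 ERF, 4 tau transferase, 11 glycosyltransferase and 25 P450 genes. Of the NAC factors 26 lay above 0 and 11 below (median 0.34), and of the ERF factors 10 above and 4 below (median 0.42). NAC036 lost its call without WT library 1 (0.071), WT library 2 (0.0315), WT library 3 (0.0337) or psp1-labelled library 1 (0.0236), and NAC2 without WT library 1 (0.0433), WT library 2 (0.0544) or WT library 3 (0.0203). ERF104 lost its call without WT library 1 (0.106), WT library 2 (0.123), WT library 3 (0.111) or psp1-labelled library 2 (0.0439), and UGT76C2 without WT library 1 (0.0739), WT library 2 (0.0206), WT library 3 (0.103), psp1-labelled library 2 (0.0212) or psp1-labelled library 3 (0.0131). Without psp1-labelled library 1, the exact test called 2 genes of protein folding and 1 each of the oxidative stress and flowering lists. Without psp1-labelled library 3 it called 1 gene each of the protein folding and oxidative stress lists.

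Photosynthesis genes lay mostly below 0. Of 47 nuclear photosystem and antenna genes 2 fell, 39 lay below 0 and the median was -0.27. Of these 47, 15 reached an unadjusted p under 0.05, the quasi-likelihood test called 0 and DESeq2 called 4. NPQ4, the PsbS protein that dissipates excess light, had means of 506 CPM in the psp1-labelled and 832 CPM in the WT libraries (log2 -0.76 ± 0.20, adjusted p = 0.0021), a call lost without WT library 1 (0.0811) or WT library 2 (0.0508). The photosystem II protein PSBW had 440.2 CPM in the psp1-labelled and 717 CPM in the WT libraries (log2 -0.75 ± 0.21, adjusted p = 0.00336), a call lost without WT library 1 (0.1), WT library 2 (0.0787), psp1-labelled library 1 (0.0103) or psp1-labelled library 2 (0.0138). The leaf mesophyll markers had 0 calls among 6, with a median of -0.13; against the WT mean their median stood at -0.43 in psp1-labelled library 1, and at 0.02 and 0.05 in libraries 2 and 3. Their part was not tested. The median of the 47 genes stood -0.55 from the WT mean on the log2(CPM + 1) scale in psp1-labelled library 1, and -0.15 and -0.01 in libraries 2 and 3. Without WT library 1 or 2, 0 of the 47 were called, and without psp1-labelled library 1, 2 or 3 the count was 3, 3 and 6. Of 67 tested genes of the plastid genome 1 fell and the median was -0.29. Here psp1-labelled library 1 was not the low one: the plastid medians against the WT mean were 0.01, -0.43 and -0.36 in psp1-labelled libraries 1 to 3. The count was 8 without psp1-labelled library 1, 4 without psp1-labelled library 3, and 0 without psp1-labelled library 2 or any 1 WT library. The called gene, ATCG00490, lost its call without WT library 1 (0.0759), WT library 2 (0.0242), WT library 3 (0.103) or psp1-labelled library 2 (0.0496). Of 23 of the mitochondrial genome 0 were called, with 5 at an unadjusted p under 0.05 and 0 called by either other test.

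Among the falls, water channels and cell wall proteoglycans recurred, 2 families that were chosen after the values were seen. Of 21 tested aquaporins 5 fell and 0 rose, 19 lay below 0 and the median was -0.43. PIP2A, a water channel of the plasma membrane, had 512 CPM in the psp1-labelled and 846 CPM in the WT libraries (log2 -0.76 ± 0.17, adjusted p = 0.00114). DELTA-TIP had 224, 233 and 286 CPM in psp1-labelled libraries 1 to 3, against 461, 458 and 374 CPM in WT libraries 1 to 3 (log2 -0.84 ± 0.16, adjusted p = 0.000145). DELTA-TIP is a channel of the vacuole membrane. The others were RD28 (-1.54 ± 0.35), TIP2;2 (-1.04 ± 0.20) and PIP1;4 (-0.67 ± 0.16), with adjusted p = 0.000812, 0.0021 and 0.00732. None of the 5 passed the quasi-likelihood test. PIP2A lost its call without WT library 1 (0.0144), WT library 2 (0.0165) or WT library 3 (0.033), and DELTA-TIP without WT library 1 (0.0139) or WT library 2 (0.0125). RD28 lost it without WT library 1 (0.0684), WT library 2 (0.0141) or WT library 3 (0.0203), TIP2;2 without WT library 1 (0.0805), WT library 2 (0.0324) or WT library 3 (0.0334) and PIP1;4 without WT library 1 (0.171), WT library 2 (0.0535), WT library 3 (0.027) or psp1-labelled library 1 (0.0193). Without WT library 1 or 2, 0 of the 21 were called, and without WT library 3, 1 was. Of 18 arabinogalactan and fasciclin proteins 3 fell, FLA9, AGP9 and AGP17, with a median of -0.52; the quasi-likelihood test called 0 of these and DESeq2 1. Without WT library 1 the count was 0, and without WT library 2 or 3 it was 1. FLA9 lost its call without WT library 1 (0.0149), AGP9 without WT library 1 (0.142), WT library 2 (0.188), WT library 3 (0.0216) or psp1-labelled library 2 (0.039) and AGP17 without WT library 1 (0.196), WT library 2 (0.012), WT library 3 (0.121), psp1-labelled library 1 (0.017) or psp1-labelled library 2 (0.0549).

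Among genes that averaged 50 counts or more in the group where they were higher, the largest fall was that of AT3G62540. This pentatricopeptide repeat gene had 2.41, 0 and 0.827 CPM in psp1-labelled and 8.37, 3.61 and 10.7 CPM in WT libraries 1 to 3 (log2 -2.71 ± 0.99, adjusted p = 0.00126); it is 99.7% identical to AT5G14820 over 1800 coding bases, and its call was lost without WT library 1 (0.0519) or WT library 3 (0.073). AT1G14890, a pectin methylesterase inhibitor family gene, was steadier. AT1G14890 had 2.92, 4.79 and 6.07 CPM in psp1-labelled libraries 1 to 3, against 15.1, 13.2 and 16.6 CPM in WT libraries 1 to 3 (log2 -1.78 ± 0.31, adjusted p = 2.1e-05). The 3 falls that every alternative called were smaller: SULTR2;1, AT5G48490 and BG_PPAP. AT5G48490 had 46.9, 55.9 and 60.1 CPM in psp1-labelled libraries 1 to 3, against 129.9, 111 and 130.5 CPM in WT libraries 1 to 3 (log2 -1.23 ± 0.14, adjusted p = 1.94e-09). AT5G48490 is annotated in a family of lipid-transfer proteins. BG_PPAP had 41.6, 54.8 and 44.7 CPM in psp1-labelled libraries 1 to 3, against 105, 89.5 and 102 CPM in WT libraries 1 to 3 (log2 -1.11 ± 0.15, adjusted p = 3.28e-07). BG_PPAP (AT5G42100) is a beta-1,3-glucanase of plasmodesmata, the channels at which PDCB3 binds callose.

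A large rise in 1 ribosomal protein gene stood beside a fall of its near copy. AT1G33120 and PGY2 (AT1G33140) code for ribosomal protein L6 and are 99.1% identical over 585 bases. AT1G33120 had 315, 330.0 and 448 CPM in psp1-labelled libraries 1 to 3, against 32.4, 79.3 and 48.9 CPM in WT libraries 1 to 3 (log2 2.73 ± 0.40, adjusted p = 1.37e-19). PGY2 had 315, 330.0 and 224 CPM in psp1-labelled libraries 1 to 3, against 749, 547 and 619 CPM in WT libraries 1 to 3 (log2 -1.18 ± 0.22, adjusted p = 3.7e-07). In psp1-labelled libraries 1 and 2 the estimated counts of the pair were equal, 1834 each and 1240 each. Their sum was 631, 660.0 and 671 CPM in psp1-labelled libraries 1 to 3, against 781, 626 and 667.5 CPM in WT libraries 1 to 3, and overlapped between groups (654 ± 20.9 against 691.5 ± 80.3 CPM, mean ± SD, n = 3 each). The pair as a whole did not differ beyond the spread between libraries, and how the reads were divided within it cannot be checked from the files. Of the 360 called genes 12 had a near copy by the same measure, at least 95% identity over 75 bases or more. The 288 tested nuclear ribosomal protein genes had 2 rises and 7 falls, these 2 genes included, and a median of -0.02. Their 9 calls were 3, 4 and 5 without WT library 1, 2 and 3, and 19 without psp1-labelled library 1. AT1G33120 was the 1 of them called under every alternative fit. Those fits all start from the same estimated counts, so they do not check how reads were divided within the pair.

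**Figure D4:**
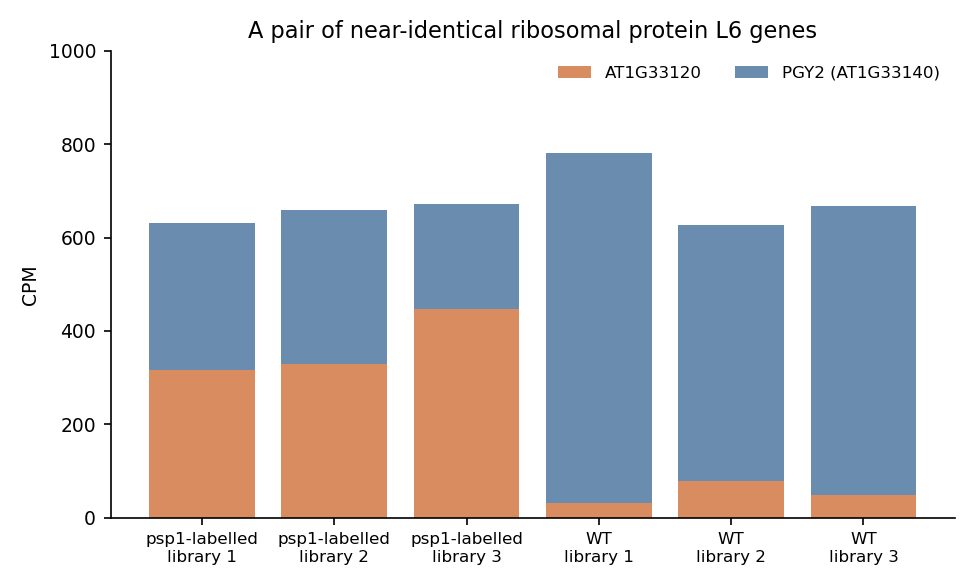
CPM of AT1G33120 (lower part of each bar) and of its near copy PGY2 (upper part) in the 6 aerial libraries, psp1-labelled at the left. The division within the pair differs between the groups, and the height of the whole bar overlaps between them, from 631 to 671 CPM in psp1-labelled and from 626 to 781 CPM in WT libraries.

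Only 4 of the 360 called genes had groups that overlapped, and all 4 are named after their values were seen. SHP1, a MADS box factor of fruit, had 1360.0, 3732 and 397 CPM in psp1-labelled libraries 1 to 3, against 563, 274 and 424 CPM in WT libraries 1 to 3. The flower genes counted above summed to at most 4.26 CPM in any aerial library, and the source of the SHP1 counts was not tested. AT3G52700 had 2087, 6930.0 and 565 CPM in the psp1-labelled and 979, 382 and 590.2 CPM in the WT libraries. Both genes were above the WT range in psp1-labelled libraries 1 and 2 and within it in library 3, and both ranked the 6 libraries in the same order. ALY4, an RNA export adapter, and ACP3, an acyl carrier protein, were the other two. The adjusted p of these 4 lay between 0.00347 and 0.00899. Without psp1-labelled library 2, the log2 fold change of SHP1 was 0.99, against 2.09 with all libraries, and that of AT3G52700 was 0.95, against 2.27. The call of SHP1 was lost without WT library 1 (0.025), WT library 2 (0.113), WT library 3 (0.0734) or psp1-labelled library 2 (0.119), and that of AT3G52700 without WT library 1 (0.0197), WT library 2 (0.14), WT library 3 (0.117) or psp1-labelled library 2 (0.2). Of 16 alternatives, 7 called ALY4 and 10 called ACP3.

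Set against the roots of the same genotypes, the aerial effect differed for 45 of the 360 called genes, or 12.5%. This came from a quasi-likelihood test of the difference between organs over all 12 libraries, which called 1.68% of 18759 genes. The 360 were picked on the same aerial libraries that enter this test. That choice can raise their share, so the 2 shares are not a fair comparison. In the same direction, 94 of the 360 (26.1%) were called in roots, where the same fit called 1832 genes (9.77% of those tested); the 94 are 5.13% of these. In the opposite direction 18 were called, and 248 were not called in roots. Among glucosinolate genes, all 7 called aliphatic members, picked by their aerial falls, differed between organs, and 18 of 26 tested over both organs did. Of those 26, 15 rose and 0 fell in roots, the medians being -0.61 in the aerial part (25 genes) and 1.03 in roots. BCAT4 stood at 1.45 in roots (adjusted p of the difference 9.18e-07) and CYP83A1 at 0.94 (1.49e-05). The sulfur shortage genes rose in both, 8 of the 9 called aerial members being called in the same direction in roots. SULTR2;1 was the exception, at 1.22 in roots (2.35e-06). None of the 9 called salicylic acid response genes and none of the 5 called phosphate genes had a called difference between organs, which does not show that the effects were equal. PSP1 itself stood at -0.40 in psp1-labelled roots (adjusted p = 0.13, not called; adjusted p of the difference 9.64e-06).

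**Figure D5:**
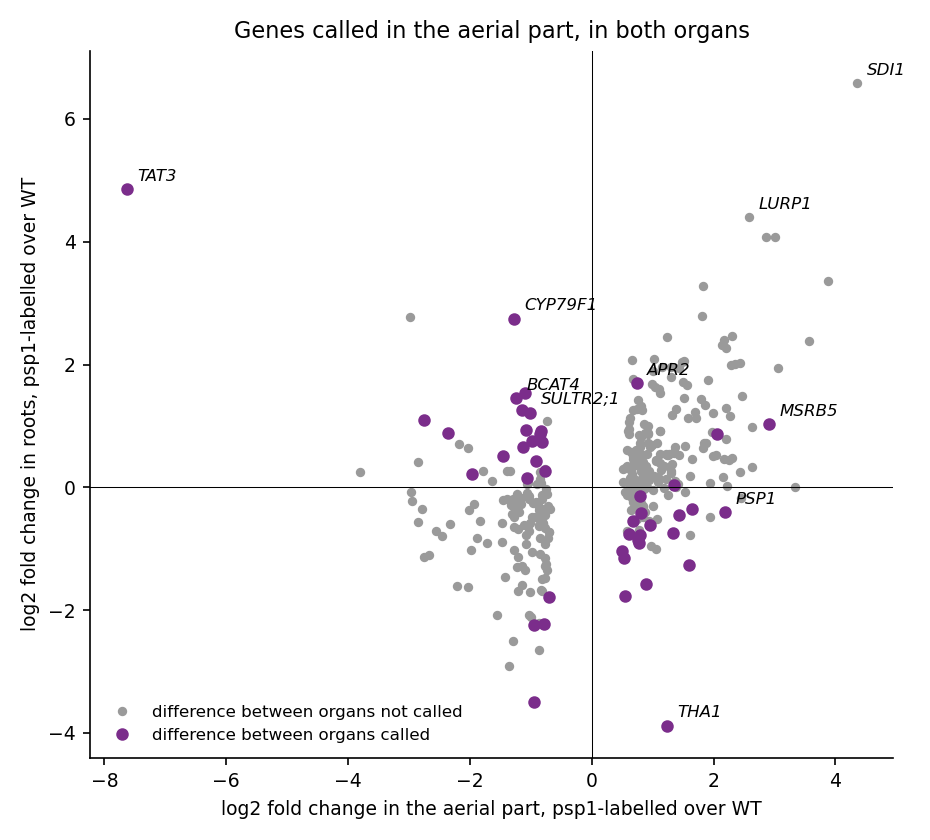
Log2 fold changes of psp1-labelled over WT in roots (vertical axis) and in the aerial part (horizontal axis) for genes called in the aerial part, both from the fit over 12 libraries; purple points have a called difference between organs. SDI1 and LURP1 lie high in both, while BCAT4, CYP79F1, SULTR2;1 and TAT3 lie below 0 in the aerial part and above 0 in roots, and THA1 the reverse.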

How the data were processed

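RNA was sequenced from 12 samples, of which the 6 aerial libraries carry the comparison and the 6 root libraries the test of organ differences. Per the file headers and the submitters' processing notes, the authors made the estimated counts and the TPM values with kallisto 0.43.0 against transcripts whose lengths are 99.99% multiples of 3, so lengths are coding lengths. The deposited estimated counts were rounded and filtered with filterByExpr. They were scaled by TMM and tested with the exact test of edgeR 4.0.16 (R 4.3.3) on 6 libraries, with Benjamini-Hochberg adjustment over 15928 genes and a call at an adjusted p under 0.01. P-values of the exact test rest on a single dispersion per gene, pooled over the 3 samples of each group and drawn toward a common value. The groups' own variation differed, at 27.3% in psp1-labelled and 11.4% in WT. Organ differences came from the quasi-likelihood test over 12 libraries. The standard error beside a log2 fold change comes from log2 CPM with a prior count of 2. Symbols and coordinates are from RefSeq's TAIR10.1 annotation, which matched 97.46% of 27416 loci; the labels do not tie the files to its coordinates. Near copies were found with blastn 2.17.0. The members and lists were chosen with earlier results of these data known. Genes were named if they belonged to the phosphorylated pathway, passed both tests, were among the 15 largest changes each way (50 counts or more, groups apart), led a list by p (up to 4 each way), were at 0 in 1 group, or led the organ test (3 each way); 99 genes met the rule, and others are marked where named or are list members given for their known role. Alternatives changed the test, scaling, filter, depth, dispersion, replicate block or library set.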

Additional observations from a re-analysis of the deposited data

Results flagged for a closer look

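The effect of the psp1 label differed between organs, by a quasi-likelihood test of the difference over 12 libraries, for 19 of the genes named in the comparison. Genes were named largely by their aerial calls, from libraries that also enter this test. Each difference below is the log2 fold change of the aerial part minus that of roots, with both effects taken from that fit. PSP1 differed by 2.60 (aerial 2.19, roots -0.40, adjusted p = 9.64e-06). TAT3 differed by -12.49 (aerial -7.63, roots 4.86, adjusted p = 0.00415); its aerial value rests on 0 counts in the psp1-labelled libraries, depends on the prior count and is no bound.

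Among glucosinolate genes the differences were all negative. IPMI1 differed by -3.25 (aerial -2.36, roots 0.89, adjusted p = 0.0018), MAM3 differed by -1.97 (aerial -1.46, roots 0.50, adjusted p = 0.00216), BCAT4 differed by -2.69 (aerial -1.24, roots 1.45, adjusted p = 9.18e-07), CYP79F1 differed by -4.02 (aerial -1.28, roots 2.75, adjusted p = 0.00562) and CYP83A1 differed by -2.01 (aerial -1.08, roots 0.94, adjusted p = 1.49e-05). The methionine genes AK3 by -2.63 (aerial -1.09, roots 1.54, adjusted p = 8.94e-07) and MS2 by -1.75 (aerial -0.84, roots 0.91, adjusted p = 2.51e-05) lay the same way, while the threonine aldolase THA1 differed by 5.11 (aerial 1.23, roots -3.88, adjusted p = 3.77e-06).

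Among sulfur shortage genes, APR2 differed by -0.96 (aerial 0.73, roots 1.69, adjusted p = 0.00174), APR3 differed by 1.18 (aerial 2.06, roots 0.87, adjusted p = 0.00571), MSRB5 differed by 1.88 (aerial 2.91, roots 1.03, adjusted p = 0.00323) and SULTR2;1 differed by -2.23 (aerial -1.01, roots 1.22, adjusted p = 2.35e-06). APR2, APR3 and MSRB5 were higher in psp1-labelled than in WT libraries of both organs and SULTR2;1 in roots alone. Of the other families, CYP71B23 differed by 1.89 (aerial 1.43, roots -0.46, adjusted p = 0.000168), CYP71B3 differed by 1.22 (aerial 0.67, roots -0.54, adjusted p = 0.00427), CYP89A9 differed by 2.31 (aerial 0.55, roots -1.77, adjusted p = 9.95e-05), NAC2 differed by 1.62 (aerial 0.76, roots -0.87, adjusted p = 0.00067) and GSTF2 differed by 0.94 (aerial 0.79, roots -0.15, adjusted p = 0.00795).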

How the results depend on the processing

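Of the 90 named genes that were called, 31 were called under every alternative. The count of 360 genes called in the aerial part was 31 with the quasi-likelihood test and 728 at an adjusted p under 0.05. Leaving out a library gave between 113 and 657. The other counts lay between 244 and 446, the lowest in a likelihood ratio test with a replicate block. Deviations from the group means correlated at -0.04, 0.03 and -0.07 in same-numbered pairs of libraries, and between -0.13 and 0.16 in the other pairs. With 3 libraries a group, these values do not decide whether replicate numbers pair the samples. Leaving out WT library 1 kept 106 of the 360 calls among its 113. The count of genes differing between organs, 315, was 936 at an adjusted p under 0.05, 889 with a likelihood ratio test, 189 with a replicate block in the quasi-likelihood test, and between 136 and 374 with a library left out. The cause was not tested. Of single values, 1411 kept direction and side of the threshold, 257 lost the call, 6 gained it and 4 changed sign. Those 4 were not called. Without psp1-labelled library 1, PGDH1 stood at 0.11 and PGDH3 at 0.049; without WT library 2, PSAT2 stood at 0.25; without WT library 1, EMB1030 stood at 0.0018. With a library left out, PGDH1 ranged from -0.40 to 0.11, PGDH3 from -0.37 to 0.049, PSAT2 from -0.99 to 0.25 and EMB1030 from -0.094 to 0.0018. Depth, 3627193 to 5815906 counts in the psp1-labelled and 7302386 to 8958217 in the WT libraries, limits genes of low counts; thinned to equal depth, 282 genes were called. Depth and the genotype label cannot be told apart.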
